A study of Mus musculus with 3 samples.

Results

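The genes described here are those of classical MHC class I presentation and of the immunoproteasome: the heavy chains H2-D1 and H2-K1, the light chain B2m, the peptide transporter genes Tap1 and Tap2, the loading chaperone Tapbp, the inducible proteasome subunits Psmb8, Psmb9 and Psmb10, and the proteasome activator subunit Psme1. They were picked by the gene names of the arrays' own annotation, in which Tap1 and Tap2 also appear as Abcb2 and Abcb3. The rule uses no measured value, but the set was chosen with earlier results of these data known. Of the 10 genes, 8 were matched to a probe, out of 8796 named genes on the array, while H2-K1 and Psmb9 were not analysed here. H2-D1 and Tap2 each had a pair of probes, so 10 probes of 20280 were followed, each on its own. All 10 passed the filter on dim spots and were tested.

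The study set mesenchymal against epithelial cells cultured from the surface layer of the mouse ovary, to profile an epithelial to mesenchymal transition (EMT). Mesenchymal cells were grown in 15% fetal bovine serum for 1 week, and epithelial cells of the same 3 cultures stayed in 2.5% serum. Each culture's mesenchymal and epithelial RNA shared 2-colour Agilent oligonucleotide arrays, once in each dye orientation, which gave 6 arrays for 3 cultures (n = 3). All cells of either group came from virgin C57/Bl6 females that had been superovulated with PMSG and hCG and mated before the ovaries were taken. Age and genotype beyond the strain, and how many mice gave a culture, are not stated in the sources used here. Both groups were grown without antibiotics in the same mixture of DMEM, F12, MCDB-105 and 199 medium, were harvested at 80% confluence, and gave 4 µg of total RNA for amplification and labelling. Serum and phenotype changed together in each culture and cannot be told apart, and a lower level in such bulk RNA cannot be told apart from fewer cells that carry the transcript.

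MHC class I molecules show peptides from inside the cell to CD8 T cells, and their absence is read by natural killer cells. Proteasomes cut cytosolic proteins into peptides, the TAP transporter moves the peptides into the endoplasmic reticulum, and tapasin holds the empty heavy chain and B2m dimer at the transporter until a peptide binds. Interferon-gamma raises the whole set and exchanges the constitutive catalytic subunits of the proteasome for inducible ones, which yields the immunoproteasome. The transporter and inducible subunit genes Tap1, Tap2, Psmb8 and Psmb9 lie together in the class II region of the mouse MHC on chromosome 17.

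Promoters are shown for the genes on which the results turn, one heavy chain with its light chain, and a pair from the transporter and immunoproteasome cluster. The sequences are the 250 bases upstream of the RefSeq start on GRCm38.p6, read 5′ to 3′ on the gene's strand. Capitals mark matches, on either strand, to an IRF element (AANNGAAA), a GAS element (TTCNNNGAA), the TGACG core of a CREB site, a CCAAT box or an NF-kappaB site, and the 2 NF-kappaB matches of H2-D1 overlap each other.
H2-D1 (chr17:35262844-35263093, + strand): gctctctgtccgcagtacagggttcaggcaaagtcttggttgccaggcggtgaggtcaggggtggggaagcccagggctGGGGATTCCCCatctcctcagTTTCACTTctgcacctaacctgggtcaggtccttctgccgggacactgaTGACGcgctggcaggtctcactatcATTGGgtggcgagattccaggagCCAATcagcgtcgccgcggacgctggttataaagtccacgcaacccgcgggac
B2m (chr2:122147437-122147686, + strand): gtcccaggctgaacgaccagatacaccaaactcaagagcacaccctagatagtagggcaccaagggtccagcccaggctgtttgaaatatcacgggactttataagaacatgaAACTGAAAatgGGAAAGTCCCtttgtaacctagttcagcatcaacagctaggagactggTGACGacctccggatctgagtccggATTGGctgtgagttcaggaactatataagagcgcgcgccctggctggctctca
Tap1 (chr17:34187306-34187555, + strand): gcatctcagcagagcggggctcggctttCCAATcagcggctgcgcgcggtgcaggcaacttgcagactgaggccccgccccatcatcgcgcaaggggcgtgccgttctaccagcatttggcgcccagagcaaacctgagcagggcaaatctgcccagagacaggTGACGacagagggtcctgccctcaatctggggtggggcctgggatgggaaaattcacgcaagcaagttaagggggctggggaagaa
Psmb8 (chr17:34197945-34198194, + strand): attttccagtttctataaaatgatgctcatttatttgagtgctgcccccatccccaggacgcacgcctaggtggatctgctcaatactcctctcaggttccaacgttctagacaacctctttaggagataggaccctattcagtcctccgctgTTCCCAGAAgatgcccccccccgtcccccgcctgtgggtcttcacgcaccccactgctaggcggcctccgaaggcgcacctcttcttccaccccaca
An IRF element stood in the windows of H2-D1, H2-K1 and B2m, 3 of the 9 genes with a window, and in 21.3% of all 32851 promoter windows. The same 3 genes had an NF-kappaB match, found in 7.25% of all windows. A GAS element stood in the Psmb8 window and in 7.02% of all windows. The TGACG core was found in 5 of the 9 genes, against 17.8% of all windows, and a CCAAT box in 6, against 33.8%. Psmb10 and Psme1 had none of these letters in the window. Tap1 and Psmb9 are transcribed away from each other, with starts 226 bases apart, so that 225 bases of the Tap1 window also lie in that of Psmb9. The TGACG and CCAAT matches of Tap1 and Psmb9 are the same bases read on opposite strands, so each was counted for both genes.

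The arrays have known limits that bear on these probes. Each RNA is labelled with either dye in the sample descriptions, so the direction of every ratio rests on the orientation given in the arrays' names. Across probes, ratios turned to mesenchymal over epithelial correlated at 0.81 to 0.93 between arrays of the same orientation and at -0.53 to -0.14 between arrays of opposite orientation, and the dye effect of a probe had an SD of 0.48 on the log2 scale, against 0.31 for its ratio averaged over both orientations. Each culture's average over both orientations correlated at 0.88 between cultures 2 and 3, and at 0.59 and 0.63 between culture 1 and these. On the array of culture 3 with mesenchymal RNA in Cy3, 1622 probes carried an outlier flag, against 50 to 454 on the others. Of the epithelial surface markers, Krt19 was lower by 0.91 ± 0.09 and Krt8 by 0.32 ± 0.06 on the log2 scale in mesenchymal cells (limma adjusted p = 0.00136 and 0.0397). Krt19 was saturated for epithelial RNA on 2 arrays and Krt8 for each RNA on 3, and a second, dimmer Krt8 probe gave -0.18 (adjusted p = 0.207). Of 9 measured genes of mesenchymal transition, 1 was higher, the transcription factor gene Snai1 (0.65 ± 0.07, adjusted p = 0.00376), and 1 lower, the smooth muscle actin gene Acta2 (-1.19 ± 0.05, adjusted p = 4.67e-04), which was saturated for epithelial RNA on 5 arrays and is named after its values were seen. Vim, saturated on 6 arrays for mesenchymal and 5 for epithelial RNA, gave -0.022, and Cdh1 gave 0.23 (adjusted p = 0.0975).

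In mesenchymal cells, RNA for an MHC class I heavy chain, both transporter subunits and the inducible proteasome subunit Psmb8 was lower than in the epithelial cells of the same cultures. The strongest were Psmb8, 2.80-fold lower, and H2-D1, 2.68-fold lower by its brighter probe. Tap1 and Tap2 were lower by 1.71-fold and 1.75-fold to 1.78-fold. Tapbp, Psmb10, Psme1 and the dimmer H2-D1 probe did not pass the test, and B2m could not be judged because its spot was saturated. Of the 10 probes, 5 were lower and 0 higher (0 also at an unadjusted p under 0.05) by a limma adjusted p under 0.05 over all 20109 probes tested, where 11.3% of all probes were called, 5.67% as lower and 5.61% as higher. The median log2 ratio of the 10 probes was -0.46, against -0.0030 over all probes.

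**Figure D1:**
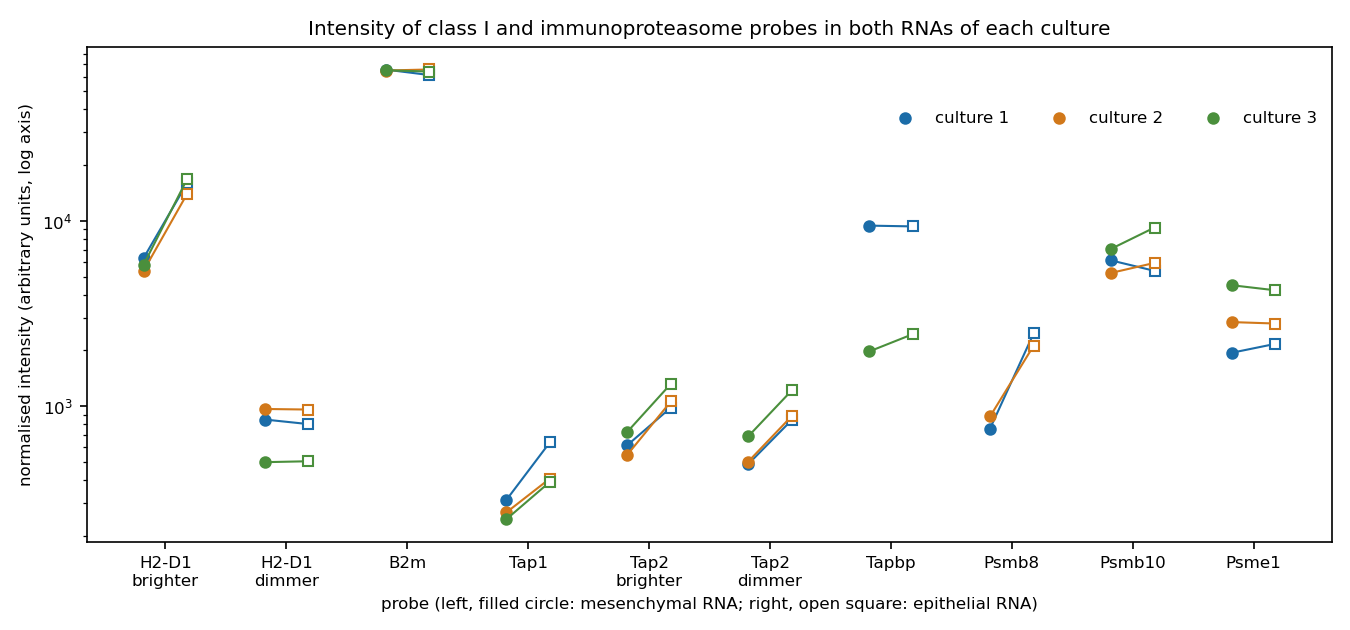
Normalised intensity of each probe (arbitrary units, log axis) in mesenchymal RNA (filled circles, left) and epithelial RNA (open squares, right) of each culture, the mean of both dyes, with a line joining the RNAs of a culture. Both Tap2 probes, Tap1, Psmb8 and the brighter H2-D1 probe lie lower in every mesenchymal RNA shown, whereas B2m sits at the top of the scale in both; levels of different probes are not comparable.

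H2-D1 encodes the heavy chain of a classical class I molecule, the part that holds the peptide and is seen by the T cell receptor. Its brighter probe gave 6312, 5385 and 5808 intensity units in the mesenchymal RNA of cultures 1, 2 and 3, and 16015, 14016 and 16843 in the epithelial RNA. Every mesenchymal value was below every epithelial one. The log2 ratios of mesenchymal over epithelial RNA were -1.34, -1.38 and -1.54, a mean of -1.42 ± 0.10 (SD, n = 3; limma 95% interval -1.60 to -1.24; adjusted p = 3.71e-04). It was negative on 6 of 6 arrays, and counted from the lowest ratio it ranked 88 of 20109 probes.

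The dimmer H2-D1 probe did not show this difference. It gave 846, 965 and 498 units in mesenchymal RNA and 799.5, 958 and 504 in epithelial RNA, so the groups overlapped. Its mean log2 ratio was 0.025 ± 0.051 (SD, n = 3; 95% interval -0.14 to 0.19; adjusted p = 0.891). Within each culture the brighter probe's log2 ratio lay below that of the dimmer probe, by -1.43, -1.39 and -1.52, a mean difference of -1.45 ± 0.067. The brighter probe was annotated with a cDNA accession, while the dimmer one carried no accession, and the other annotation version, used on 1 array, listed it by its clone name only. The probe sequences were not used here, so which class I heavy chain transcripts either probe detects was not tested, and the H2-D1 result rests on 1 of 2 probes.

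B2m encodes beta-2-microglobulin, the light chain that every class I heavy chain needs to reach the surface. Its intensities were 65574, 64782 and 65032 in mesenchymal RNA and 61291.5, 65631 and 63954 in epithelial RNA. These values are at the ceiling of the scanner: the spot was saturated for mesenchymal RNA on 6 of 6 arrays and for epithelial RNA on 5 of 6. The log2 ratio of 0.034 ± 0.059 (adjusted p = 0.846) therefore bounds no fold, and what B2m did between the groups was not detectable on these arrays.

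Tap1 and Tap2 encode the 2 subunits of the transporter that carries peptides into the endoplasmic reticulum. Tap1 gave 312, 267 and 245 units in mesenchymal RNA and 638, 406 and 390.0 in epithelial RNA, with no overlap. Its log2 ratios were -1.03, -0.61 and -0.67, a mean of -0.77 ± 0.23 (SD, n = 3; 95% interval -1.02 to -0.52; adjusted p = 0.00693). This probe was the dimmest of the set relative to all probes, at the 13.7th percentile of brightness, and its ratio moved with the dye. With mesenchymal RNA in Cy5 it gave -1.44, -1.30 and -1.38, and with mesenchymal RNA in Cy3 it gave -0.63, 0.086 and 0.039, so that 4 arrays were below 0 and 2 above.

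Both Tap2 probes fell by a like amount. The brighter one gave 615, 546 and 726 units in mesenchymal RNA and 982, 1059 and 1318 in epithelial RNA, and the dimmer one 486, 501 and 686 in mesenchymal RNA and 841, 883 and 1215 in epithelial RNA. Neither probe had a mesenchymal value that reached the lowest epithelial value. The mean log2 ratios were -0.83 ± 0.14 (adjusted p = 0.00267) and -0.81 ± 0.017 (adjusted p = 0.00149), each negative on 6 of 6 arrays. The difference between the probes within a culture averaged -0.019 ± 0.13, less than its spread. Both probes of Tap2 therefore gave the same call.

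Tapbp encodes tapasin, which bridges the transporter and the empty class I dimer. It was measured in cultures 1 and 3 only, since a spot of culture 2 was outlier-flagged, and gave 9423 and 1971 units in mesenchymal RNA and 9332 and 2443 in epithelial RNA. The groups overlapped, and the cultures differed from each other by more than the RNAs within one. The mean log2 ratio was -0.15 ± 0.23 (n = 2; 95% interval -0.44 to 0.15; adjusted p = 0.568).

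**Figure D2:**
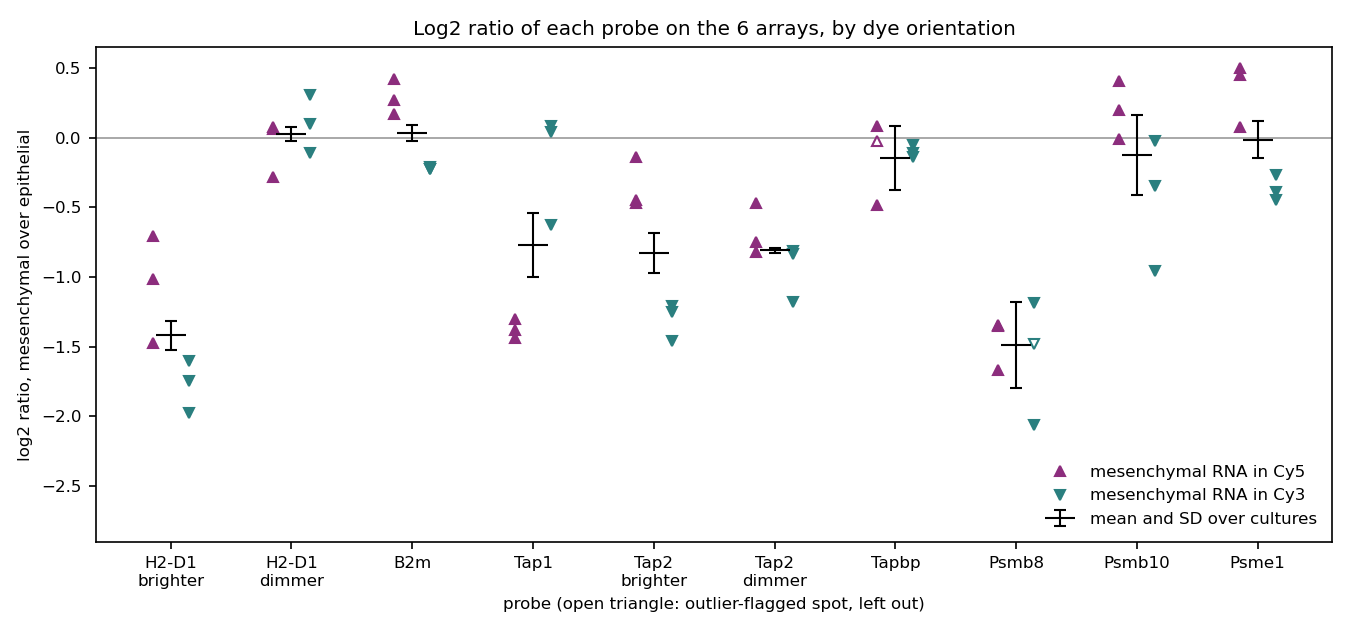
Log2 ratio of mesenchymal over epithelial RNA on each of the 6 arrays (triangles, by the dye of the mesenchymal RNA; open triangles are outlier-flagged spots that were left out) with the mean and SD over cultures (black). The brighter H2-D1 probe, both Tap2 probes and Psmb8 lie below 0 in both dye orientations, while Tap1 lies well below 0 with mesenchymal RNA in Cy5 and reaches 0.086 with the dyes exchanged.

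Psmb8 encodes the inducible catalytic subunit beta5i, which replaces the constitutive subunit encoded by Psmb5. It gave 756 and 879 units in the mesenchymal RNA of cultures 1 and 2, and 2465 and 2116 in the epithelial RNA, with no overlap. The log2 ratios were -1.71 and -1.27, a mean of -1.49 ± 0.31 (SD, n = 2; 95% interval -1.83 to -1.15; adjusted p = 0.00378). In culture 3 a spot was outlier-flagged and the culture was left out, although its arrays read -1.67 and, on the flagged spot, -1.48. The ratio was negative on 5 of 5 arrays without a flag, and it ranked 73 of 20109 from the lowest.

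Psmb10, the gene of the inducible subunit that replaces the one encoded by Psmb7, differed in direction between cultures. Its intensities were 6117, 5233 and 7055 in mesenchymal RNA and 5371, 5927 and 9199 in epithelial RNA, and the groups overlapped. The log2 ratios were 0.19, -0.18 and -0.38, with a mean of -0.12 ± 0.29 (SD, n = 3; 95% interval -0.41 to 0.16; adjusted p = 0.639). Culture 1 decided this result: without it the mean was -0.28 and the probe was called lower (adjusted p = 0.00291, from a fit in which limma gave all probes a single shared variance), and without culture 3 the mean was 0.0040.

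Psme1 encodes the alpha subunit of PA28, the interferon-induced activator that caps the proteasome. It gave 1940.5, 2840.4 and 4491 units in mesenchymal RNA and 2167, 2790 and 4217 in epithelial RNA. The groups overlapped, and the mean log2 ratio was -0.014 ± 0.13 (SD, n = 3; 95% interval -0.21 to 0.18; adjusted p = 0.948). Its PA28 partner Psme2 had a log2 ratio of 0.25 ± 0.17 (adjusted p = 0.140), with a dye effect of -1.60.

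Of the inducible and constitutive subunit pairs, 2 could be compared within a culture. The log2 ratio of Psmb8 minus that of Psmb5 averaged -1.66 ± 0.30 (n = 2), and that of Psmb10 minus that of Psmb7 averaged -0.71 ± 0.28 (n = 3), with values between -0.93 and -0.39. Both were negative in every culture measured. By the exact two-sided sign-flip permutation test, p was 0.5 and 0.25 (both 0.5 after Benjamini-Hochberg adjustment over 2 pairs), the smallest that this test can give with 2 and 3 cultures, so it cannot pass 0.05 here. Psmb5 was saturated for each RNA on 1 array, and Psmb7 for mesenchymal RNA on 1. Without saturated spots Psmb8 and Psmb5 could not be compared, and Psmb10 minus Psmb7 averaged -0.66 (n = 2).

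**Figure D3:**
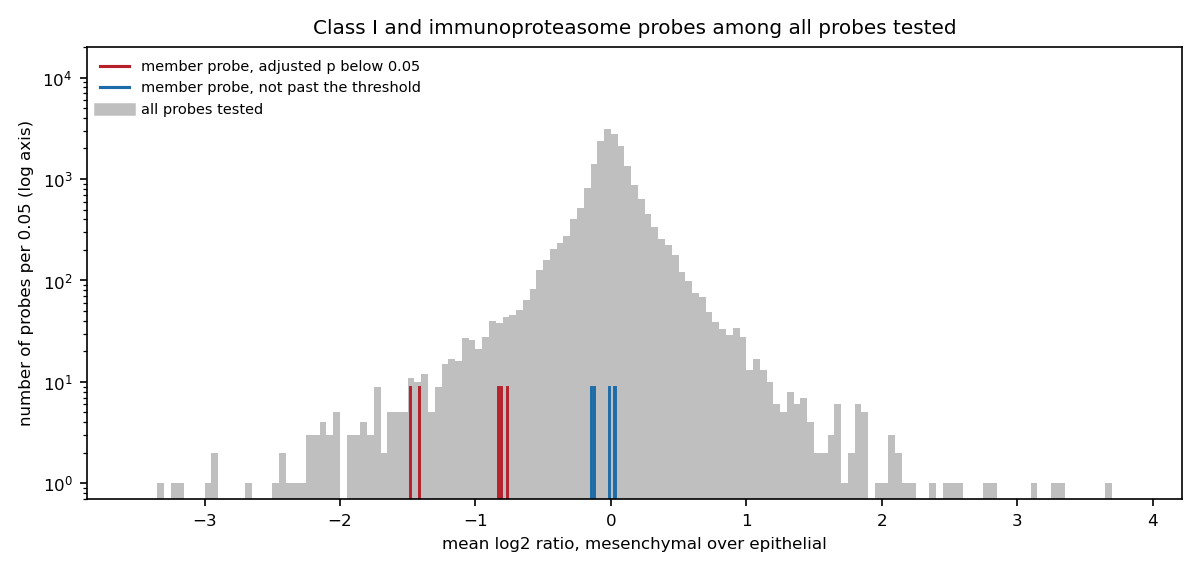
Number of probes (log axis) by mean log2 ratio of mesenchymal over epithelial RNA for all 20109 probes tested, in bins of 0.05, with the 10 class I and immunoproteasome probes as lines (red where the adjusted p is below 0.05). The 5 called probes lie between -1.49 and -0.77, below the 5th percentile of all probes at -0.43, and the other 5 lie between -0.15 and 0.034.

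Across the set, 5 probes had mesenchymal and epithelial intensities that did not overlap, namely the brighter H2-D1 probe, Tap1, both Tap2 probes and Psmb8, and 14.3% of all probes had no overlap. These are the same 5 probes that passed the test. The brighter H2-D1 probe, both Tap2 probes and Psmb8 were below 0 on every array without a flag, as 5.75% of all probes were. The called genes are all on chromosome 17, as is Tapbp, whereas B2m is on chromosome 2, Psmb10 on 8 and Psme1 on 14. Paired values within a culture carry these calls: when the RNAs were compared as unpaired groups, only the brighter H2-D1 probe was still called (adjusted p = 0.0100), and Psmb8 (0.0596), Tap1 (0.262) and Tap2 (0.113 and 0.201) were not. Psmb8 could not be tested without culture 1 or without culture 2.

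The other genes of the pathway were read by lists, each gene by its brightest probe, beside the 11.3% of all probes that were called. Among class I heavy chains and class I-like genes, 6 of 33 were measured, 0 lower and 1 higher (limma; 2 and 2 at an unadjusted p under 0.05), with a median log2 ratio of 0.046. The gene that rose was Procr, the endothelial protein C receptor with a class I-like fold (0.94 ± 0.18, adjusted p = 0.00240), which does not present peptides. H2-T22, a non-classical heavy chain, had -0.32 ± 0.18 (adjusted p = 0.0840), Cd1d1, which presents lipids, -0.22 (adjusted p = 0.118), and H2-T23, the mouse Qa-1 gene read by natural killer cells, 0.11 (adjusted p = 0.666). Hfe, a class I-like regulator of iron uptake, had -0.016. H2-L and the H2-Q genes were not analysed here.

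Of 22 genes of peptide trimming and of loading in the endoplasmic reticulum, 19 were measured, with 1 lower and 0 higher (3 and 1 unadjusted) and a median of 0.018. The gene that fell was Uggt1, which re-glucosylates misfolded glycoproteins so that they return to calreticulin (-0.57 ± 0.19, adjusted p = 0.0142). The chaperone Calr had a log2 ratio of 0.018 and the oxidoreductase Pdia3 of 0.19 (adjusted p = 0.293), while Erap1, the aminopeptidase that trims class I peptides, had -0.25 (adjusted p = 0.131). Canx and Hspa5 were the brightest of the list, at -0.053 and -0.057, and were saturated on 4 arrays for mesenchymal RNA and on 6 and 5 for epithelial RNA.

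None of the measured constitutive proteasome genes was called lower. Of 22 genes of the 20S core, its other caps, its assembly factors and its inhibitor, 20 were measured, 0 lower and 2 higher (0 and 6 unadjusted), with a median of 0.16. The share called, 10%, was near that of all probes. Pomp, a chaperone of 20S assembly, rose by 0.61 ± 0.26 (adjusted p = 0.0205) and the alpha ring subunit Psma6 by 0.43 ± 0.11 (adjusted p = 0.0188). Psma6 was saturated for mesenchymal RNA on 3 arrays and could not be tested without those spots, and Pomp, saturated on 1, was then not called (0.56, n = 2, adjusted p = 0.0782). Among the catalytic subunits that inducible ones replace, Psmb5 had 0.18 ± 0.014 (adjusted p = 0.168), Psmb7 0.58 ± 0.47 (adjusted p = 0.0938) and Psmb6, saturated on 6 arrays for mesenchymal and 5 for epithelial RNA, 0.00076. Psme3 was not analysed here. Of 23 genes of the 19S regulator, which unfolds ubiquitinated proteins, 21 were measured, 0 lower and 4 higher (0 and 9 unadjusted), with a median of 0.17. The ATPase genes Psmc1 and Psmc3 rose by 0.61 ± 0.10 and 0.49 ± 0.24, the deubiquitinase gene Psmd14 by 0.56 ± 0.07, and the scaffold subunit gene Psmd12 by 0.35 ± 0.14 (adjusted p at most 0.0466). Psmc3 and Psmd14 were saturated for mesenchymal RNA on 1 array each, and without those spots Psmc3 was not called (0.57, n = 2, adjusted p = 0.0514). The dye effect was -1.79 for Pomp and -1.80 for Psmd14, larger in size than their ratios. It lay between -0.41 and 0.066 for Psma6, Psmc1, Psmc3 and Psmd12.

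Among 39 regulators of class I transcription and of interferon signalling, 26 were measured, 0 lower and 1 higher (4 and 2 unadjusted), with a median of -0.0039. Socs3, an inhibitor of JAK and STAT signalling, rose by 0.74 ± 0.21 (adjusted p = 0.00651). Irf1, a factor that drives class I and Tap1 transcription after interferon-gamma, had 0.15 ± 0.22 (adjusted p = 0.465). The brightest genes of the list were Relb, an NF-kappaB subunit, at -0.00025, and the interferon-gamma receptor subunit Ifngr2, at -0.26 (adjusted p = 0.194). Nlrc5, the class I transactivator, was not analysed here.

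Of 32 other interferon-induced genes, 19 were measured, with 3 lower and 2 higher (6 and 3 unadjusted) and a median of -0.12, and 16 of the 19 had a ratio below 0, as had 50.8% of all probes. Bst2, which encodes tetherin, fell by 1.76 ± 0.29 (adjusted p = 7.52e-04), the largest fall in these pathway lists. Oasl2, of the oligoadenylate synthetase family, fell by 0.75 ± 0.37 (adjusted p = 0.0224), and the ubiquitin-like modifier gene Isg15 by 0.70 ± 0.11 (adjusted p = 0.00369). Ifitm3, which restricts virus entry, rose by 0.51 ± 0.14, and the GTPase gene Tgtp1 by 0.38 ± 0.07 (adjusted p = 0.0136 and 0.0236). Ifitm3 was saturated for mesenchymal RNA on 3 arrays and could not be tested without those spots. The guanylate-binding protein gene Gbp3, named after its values were seen, had -0.26 (adjusted p = 0.0884) by its brightest probe and passed the test by a dimmer one (-0.55 ± 0.12, adjusted p = 0.00941).

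**Figure D4:**
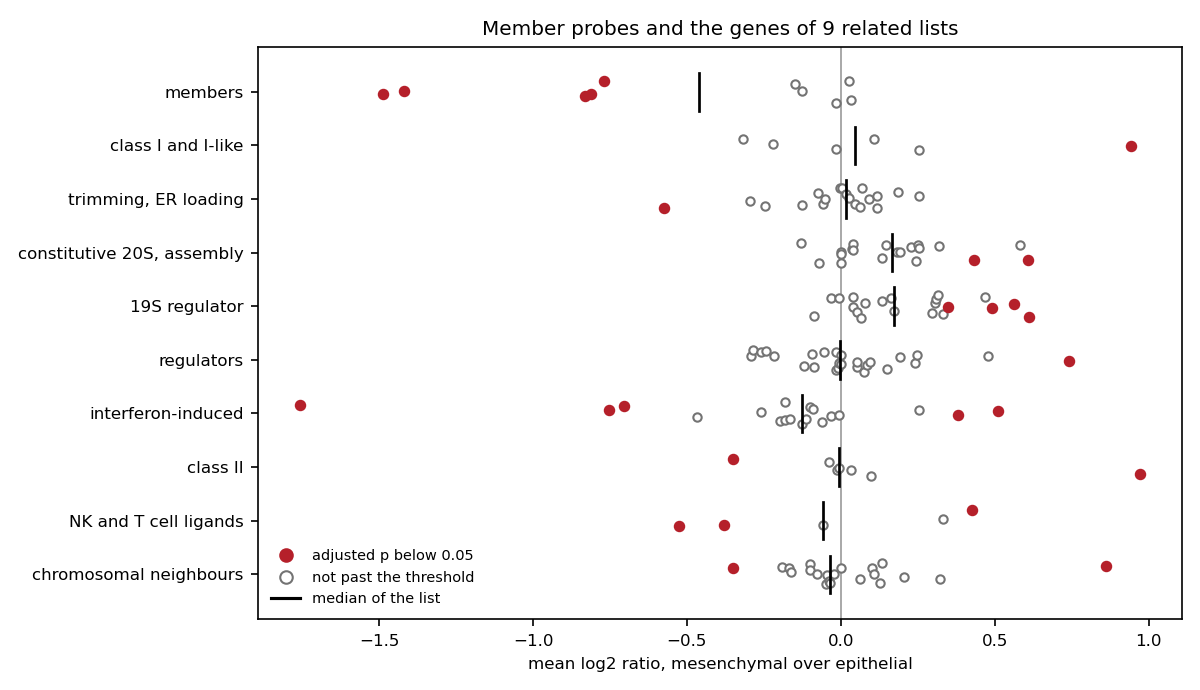
Mean log2 ratio of mesenchymal over epithelial RNA for the 10 class I and immunoproteasome probes (top row) and for the measured genes of 9 related lists, each by its brightest probe; filled points passed an adjusted p of 0.05 and bars are list medians. The class I and immunoproteasome probes have a median of -0.46, while the list medians lie between -0.12 and 0.17.

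Class I and immunoproteasome RNA is abundant in leukocytes, so their markers were read beside these results. Of 18 leukocyte markers, 9 were measured, and 0 were called in either direction by limma, also at an unadjusted p under 0.05 (median log2 ratio -0.018). Their summed intensity ranged between 24406 and 37686 units in mesenchymal RNA and between 23777 and 39458 in epithelial RNA. Ptprc, the pan-leukocyte antigen CD45, had a log2 ratio of 0.052 (adjusted p = 0.752). Its probe was dim, with a mean log2 brightness of 8.45, against 8.47 for Tap1, the dimmest member probe. Whether the RNAs held equal shares of leukocytes was not tested. Of 10 measured markers of the surface epithelium, 7 were lower and 0 higher (8 and 2 unadjusted), and their summed intensity was 163501 to 193059 units in mesenchymal RNA and 315818 to 362360 in epithelial RNA. Among the lower ones, Krt7, Krt19 and Krt8 were saturated for epithelial RNA on 6, 2 and 3 arrays, and could not be tested without saturated spots. The other lower ones had no saturated spot and stayed called in that setting. They were Gpm6a (-2.97), Msln (-2.07), Bnc1 (-1.04) and Wt1 (-0.89), all named after their values were seen. A second, dimmer probe of Krt7, a gene named after its values were seen, gave -0.37 (adjusted p = 0.0834). Markers of other cell types also moved, and the genes given here were named after their values were seen. Of 7 endothelial markers 1 was lower, Cd34 (-0.88), which was also the brightest of them. Their summed intensity, in which bright probes weigh most, was 29995 to 33668 units in mesenchymal RNA and 39399 to 42739 in epithelial RNA. Of 7 markers of smooth muscle and pericytes, 1 was lower, Acta2, and 1 higher, the receptor gene Pdgfrb (2.50). Their summed intensities were 41334 to 46105 units in mesenchymal RNA and 69439 to 80786 in epithelial RNA. Acta2, saturated for epithelial RNA on 5 arrays, had a mean log2 brightness of 15.3, against at most 12.1 for the others, and so weighs most in these sums. Levels of different probes are not comparable, so the sums do not count cells. Of 8 markers of theca and stroma, 2 were lower, Ogn (-2.05) and Pdgfra (-0.84), and 1 higher, Ptch1 (0.71), and their sums overlapped, at 26441 to 39458 units in mesenchymal RNA and 37468 to 46530 in epithelial RNA. Of 11 granulosa markers 1 was lower, Inhba (-0.88), and their sums overlapped too, at 22275 to 32268 units in mesenchymal RNA and 23452 to 35770 in epithelial RNA. Most surface epithelium markers were thus lower in the same RNA as the class I values. Within every culture the theca and stroma sum and the granulosa sum were also lower in mesenchymal RNA, so their overlap lay between cultures. For granulosa the pairs were 22275 against 23452, 25600 against 28584 and 32268 against 35770 units. The leukocyte sum was higher in mesenchymal RNA in culture 1 and lower in cultures 2 and 3. The part of any of these cell types in the class I values was not tested.

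Among the genes whose 6 intensities, 3 cultures in each RNA, followed the mean profile of the 8 member probes measured in all cultures most closely were Pdia5, Lhpp, Plxnb1 and Meg3, of 7941 genes compared. Their Pearson's r over the 6 values was 0.991 to 0.993, a description over samples that share arrays and labelling. Pdia5, a protein disulphide isomerase gene of the endoplasmic reticulum, had a log2 ratio of -0.50 ± 0.07, Lhpp -0.80 ± 0.04, the plexin gene Plxnb1 -0.72 ± 0.06 and the imprinted non-coding RNA gene Meg3 -1.25 ± 0.14. These lower ratios follow from the choice of genes, since the profile itself was lower in mesenchymal RNA. The profile held the saturated B2m probe and left out Psmb8 and Tapbp.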

How the data were processed

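RNA of 3 cultures was measured on 6 arrays. Spot means and local backgrounds are linear intensities as scanned, per the file headers (Agilent Feature Extraction). The log10 ratios of Cy5 over Cy3 deposited by the authors come from that software, and their value table equals the mean of a culture's turned log10 ratios (medians 0.00564, -0.0102 and -0.00229). The submitters' processing notes name limma.

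In limma 3.58.1 (R 4.3.3), intensities were normexp-corrected (offset 50), loess-normalised per array, turned to mesenchymal over epithelial log2 ratios and averaged per culture. Control, retired (91) and outlier-flagged spots were left out. A culture needed both arrays, and a probe at least 2 cultures and a well-above-background flag for the same RNA on 4 of 6 arrays (43 removed; the flag was set on 22.5% to 72.2% of negative controls). Of 20109 probes tested, 2464 rested on 2 cultures. Ratios were tested against 0 (lmFit and eBayes, Benjamini-Hochberg). Intensities per RNA came from Aquantile scaling. The number of arrays limits the precision. Pairing comes from the shared culture and array. Only the fit and its adjustment were tested on simulated data, which were log2 ratios per culture.

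Names came from gene IDs (9946 probes), current symbols (95) or synonyms (1335) in a RefSeq table of GRCm38.p6. Of 4 subunit pairs planned, 2 could be measured. Members and lists were chosen with earlier results of these data known. Named from each list were up to 4 called genes with the largest change, or the 2 brightest where fewer than 2 were called, plus genes set by role; a few of these are not reported here.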

Additional observations from a re-analysis of the deposited data

How the results depend on the processing

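The count of called class I and immunoproteasome probes stayed at 5 with other background or dye corrections, the authors' table, other filters, outlier spots kept, saturated spots left out, arrays as observations, another variance model and, chosen after seeing the data, without B2m. It was 4 with 1 probe per gene and 1 with no replicate block. When a culture was left out it was 4 to 5, and the 5 without culture 1 held Psmb10 and not Psmb8, which then had no test. Over all probes the count was 2269, 802 (without culture 3) to 5864 (without culture 1) when a culture was left out, 256 with no replicate block, 2090 with 1 probe per gene, and 2178 to 2796 otherwise. For the gene lists it was 21, with 5 to 61 when a culture was left out and 1 with no replicate block, and without saturated spots 17, with 9 higher in place of 13. With no replicate block the call that held was that of the brighter H2-D1 probe. Signs turned only for probes that were not called: B2m with median centring (-0.017), the dimmer H2-D1 probe with the scanner software's log ratios (-0.026), the authors' table (-0.025) and a culture left out (-0.0032 to 0.046), and, with a culture left out, Psmb10 (-0.28 to 0.0040) and Psme1 (-0.067 to 0.058). The log2 ratio ranged between -1.46 and -1.36 for the brighter H2-D1 probe, -1.60 and -1.46 for Psmb8, -0.90 and -0.64 for Tap1, and -0.91 and -0.77 and -0.89 and -0.80 for the Tap2 probes. Of the member probes, Psmb10 alone gained a call, without culture 1, where limma's fit shared 1 variance over all probes. Saturation leaves B2m unread, and Tapbp and Psmb8 rest on 2 cultures.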

Other observations

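Some genes that lie beside these on the presentation pathway but outside class I also differed. Of 13 genes of class II presentation, 7 were measured. Ifi30, the lysosomal thiol reductase that opens disulphides of endocytosed antigens, rose by 0.97 ± 0.09 on the log2 scale in mesenchymal cells (limma adjusted p = 0.00114), and Lgmn, a lysosomal asparagine endopeptidase, fell by 0.35 ± 0.09 (adjusted p = 0.0341). The class II chains H2-Aa, H2-Ab1 and H2-Eb1 had ratios of -0.0048, 0.034 and -0.011, and the invariant chain gene Cd74 had -0.038 (adjusted p = 0.842). Of 21 ligands read by natural killer and T cells, 5 were measured. Nectin2 and Pvr, which bind the activating receptor DNAM-1 and the inhibitory receptor TIGIT, fell by 0.53 ± 0.11 and 0.38 ± 0.17 (adjusted p = 0.0100 and 0.0449), and Cd47, a signal against phagocytosis, rose by 0.43 ± 0.17 (adjusted p = 0.0327). Second probes gave -0.079 for Nectin2 and -0.27 for Cd47, neither past the threshold.

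Of 35 chromosomal neighbours of these genes, 21 were measured, with 1 lower, 1 higher and a median log2 ratio of -0.034. The share called, 9.5%, was near the 11.3% of all probes. The zinc transporter gene Slc39a7 fell by 0.35 ± 0.12 (adjusted p = 0.0421), with -0.085 by a second probe (adjusted p = 0.647), and Cuta rose by 0.86 ± 0.16 (adjusted p = 0.00284).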
